A study of Mus musculus with 3 samples.

Results

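Eph receptors, ephrins, semaphorins, plexins, neuropilins, Slits, Robos and netrins were followed in otic placodes that lacked both Fgf3 and Fgf10. The probes were chosen by gene name on an Agilent mouse array, which held 115 such probes for 62 genes. Of these, 89 probes for 56 genes met the detection rule (either dye clearly over background on each of the 3 arrays), as did 25514 probes in all. The 26 others were left out as too dim. Each of the 3 arrays compared 1 pool of 10 microdissected placodal ectoderms from Fgf3-/-;Fgf10-/- embryos (double null, Cy5) with 1 pool of 10 from Fgf3+/-;Fgf10+/- embryos (double heterozygote, Cy3). All embryos were untreated and at the 4 to 8 somite stage, so the controls also carried 1 mutant allele of each gene. With no dye swap, dye and genotype cannot be told apart. Strain and litter are not named in the labels, which call the pools biological replicates.

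These families carry short-range and long-range signals between cells. Ephrins are membrane-bound ligands that activate Eph receptor tyrosine kinases on neighbouring cells, and they are known for keeping cell populations apart, among them the segments of the hindbrain beside the otic placode. Semaphorins act through plexins, with neuropilins as co-receptors for the secreted class 3 members, while secreted Slits act through Robo receptors, and netrins guide cells and axons through receptors such as Dcc and the Unc5 family.

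Detected spots numbered 26452 to 28258 per array for the double heterozygote pools and 27284 to 29177 for the double null pools. Values below are log2 ratios of double null over double heterozygote, after normexp background correction and loess normalization within each array, and errors are moderated standard errors (SE) over 3 arrays. A probe was called if its limma p, adjusted by Benjamini-Hochberg over all 25508 probes tested, was under 0.05. An exact sign-flip test on 3 arrays cannot give a two-sided p below 0.25, so that single values rest on the fit across all probes. The probes of the targeted genes were at -0.48 ± 0.12 for Fgf3 (adjusted p = 0.121) and 0.14 ± 0.085 for Fgf10 (adjusted p = 0.386). The sources used here do not say whether these probes lie in the deleted part, so they do not check the labels. In bulk tissue, fewer cells of a type and less RNA per cell cannot be told apart.

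A single guidance probe was called, that of Epha2, which fell. It was 1 of 89 members, or 1.12%, against 1.51% of all probes tested, so the share of calls among the guidance genes was near the background. That background includes probes brighter than any member, since 0 members had a mean log2 intensity over 15. A fit limited to probes up to that intensity called 21 probes in all (0.0848%) and 0 members. Among all probes, 0.29% were called lower and 1.22% higher in the double null. At an unadjusted limma p under 0.05 there were 16 of 89 members, or 18% (9 lower, 7 higher), against 20.2% of all probes (8.37% lower, 11.9% higher). The median ratio was -0.016 over the members and 0.010 over all probes. The members ranged from -0.34, for Epha2, to 0.48, for Sema3e.

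**Figure D1:**
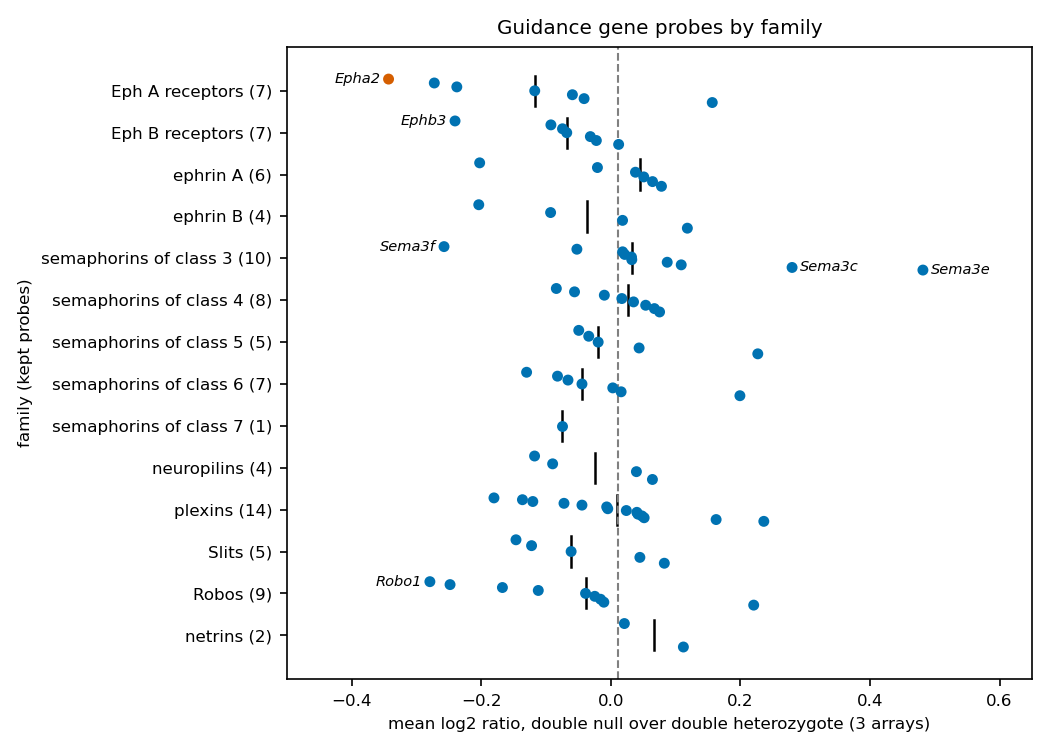
Mean log2 ratio (double null over double heterozygote, 3 arrays) of each kept guidance probe, by family with the number of kept probes in brackets. Black bars mark family medians, the dashed line the median of all probes tested (0.010), orange the called probe (Epha2) and blue all others. Most probes lie within 0.2 of 0, with Epha2 at -0.34 and Sema3e at 0.48 at the ends.

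Epha2 encodes an Eph A receptor of epithelia. The processed scanner intensity of its probe was 5739.7, 6717 and 6668 in the double heterozygote pools and 4828, 5141 and 5329.6 in the double null pools of arrays 1 to 3. Every double null value lay below every double heterozygote value. The normalized ratios were -0.27, -0.40 and -0.36, with a mean of -0.34 ± 0.053 (SE, n = 3), a fold of 0.788 and adjusted p = 0.0361 by limma. With any 1 array left out the call was lost (adjusted p = 0.0502 without replicate 1, adjusted p = 0.137 without replicate 2 and adjusted p = 0.176 without replicate 3), while the ratio stayed between -0.38 and -0.31. It was also lost with a normexp offset of 16 (adjusted p = 0.0816), processed signals (adjusted p = 0.212), a loess span of 0.1 (adjusted p = 0.0994), probes up to a mean log2 intensity of 15 (adjusted p = 0.102) and separate channels (adjusted p = 0.0885). The authors' deposited table gave -0.25, -0.39 and -0.32 for the same probe, and a limma fit to that table called 0 probes in all (4469 at unadjusted p under 0.05), with adjusted p = 0.20 for Epha2. With arrays only centred on their medians, a setting that leaves any brightness-dependent dye difference in place, the ratio turned to 0.23. There the probe was called higher (limma adjusted p = 0.00943), while the median over all tested probes was 0.33.

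The probe that carried this call lies at chr4:140707665-140707724 of the mouse build mm7, on the plus strand, where its position in exon or UTR was not analysed here. The first 30 of its 60 bases are shown with those of the probes of Ephb3, Robo1 and Sema3e, which were called beside it when the spread was modelled with an intensity trend.
Epha2: agcccctttggacaaatgtcgctgtcagtg
Ephb3: ggagatatggtgccccatcctgaagccagc
Robo1: agctggtgacctcacgtacagactttatcg
Sema3e: atgatttttatgaggcttttcagttcggta
These 4 probes lie on chromosomes 4, 16, 16 and 5 of mm7. Each is the only kept probe of its gene.

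For Epha2, as the called gene, the 250 bases before the gene's start are printed from RefSeq (GRCm38.p6, chr4:141300971-141301220, plus strand), with a palindromic cAMP response element, TGACGTCA, in capitals.
Epha2 promoter: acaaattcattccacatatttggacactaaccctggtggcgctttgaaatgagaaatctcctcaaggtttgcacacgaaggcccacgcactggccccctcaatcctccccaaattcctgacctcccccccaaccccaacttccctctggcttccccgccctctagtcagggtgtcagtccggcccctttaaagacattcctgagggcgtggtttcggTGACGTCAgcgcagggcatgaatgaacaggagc
Both motifs were chosen after the data were examined. This one, whose letters read the same on both strands, was in 1.55% of 32851 RefSeq promoter windows of the same length and in 1 of 64 windows of the 48 member genes that matched. The core of ETS factor sites, CCGGAA on either strand, was in 12% of all windows and in 6 of the 64 member windows (9.38%), those of Ephb2, Ephb6, Plxnb1, Sema3d, Sema4a and Sema4b. The Epha2 window holds no copy of these letters.

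Most Eph receptor probes had small negative ratios. Of 14 kept Eph probes for 10 genes, 12 had a mean below 0 (46% of all probes did), the median was -0.071, and 1 was called. Of these 14, 5 were lower on all 3 arrays (19.2% of all probes) and 1 was higher on all 3 (24.5% of all probes). The count below 0 was 8 of 14 without replicate 1. It was 2 of 14 with median centring alone, where 9 of 14 lay below the median of all probes, against 12 of 14 here. With probes averaged per gene, 8 of 10 Eph genes were below 0. Negative means were not particular to Eph receptors, since 8 of 9 kept Robo probes were also below 0. Those 9 probes are of 4 genes, 5 of them of Robo2, so they are not independent. Averaged per gene, 4 of 4 Robo genes were below 0. Of the 9 Robo probes, 2 (22.2%) were lower on all 3 arrays.

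Ephb3, an Eph B receptor gene, had ratios of -0.32, -0.21 and -0.19 (mean -0.24 ± 0.053, limma adjusted p = 0.0889) and did not pass. All 3 arrays lay below 0, and the ratio was 0.23 with median centring. Epha3 was the one Eph probe above 0 on all 3 arrays, at 0.23, 0.073 and 0.17 (mean 0.16, adjusted p = 0.187), and 2 further Epha3 probes were not above background in enough arrays to be kept.

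Epha4, a receptor of hindbrain segments, had its brighter probe at -0.060, -0.044 and -0.074 and its second probe at -0.20, 0.027 and 0.049. Their means were -0.059 and -0.041, and 0.57 and 0.40 with median centring alone. The brighter Ephb2 probe had ratios of -0.091, -0.029 and -0.10, and the second -0.29, 0.028 and -0.012. None of these 4 probes was called, and their means were between -0.093 and -0.041.

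Epha1 was at -0.12, Ephb1 at 0.012, Ephb6 at -0.032 and both Ephb4 probes at -0.068 and -0.022. No probe of Epha5, Epha6, Epha8 or Epha10 was kept, which leaves these receptors not analysed beyond their detection. Of their 7 probes, 5 were never well above background.

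The ephrins, the ligands of these receptors, had 10 kept probes of 10, and none was called by limma (2 at unadjusted p under 0.05, both lower). Over all probes 20.2% had an unadjusted limma p under 0.05, with 8.37% lower. Efna5, a ligand of Eph A receptors, had ratios of -0.13, -0.28 and -0.20 at its brighter probe (mean -0.20 ± 0.054, adjusted p = 0.127). Its second probe, near the lower end of intensity, gave -0.056, 0.083 and -0.089. The brighter probe of Efnb2, an Eph B ligand, was at -0.027, -0.21 and -0.38 (mean -0.20, adjusted p = 0.20), below 0 on all arrays but unequal between them. The second Efnb2 probe was at 0.069, 0.050 and -0.065, so the probes of this gene differed in sign.

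Efnb3, Efna4 and Efna2 had positive ratios on all 3 arrays without being called. Efnb3 was at 0.043, 0.20 and 0.11 (mean 0.12, adjusted p = 0.282), and Efna4 at 0.050, 0.11 and 0.078 (mean 0.078, adjusted p = 0.411). Efna2 was at 0.057, 0.076 and 0.060 (mean 0.064). Efna1 had a mean of 0.051 and Efna3 of 0.038, while Efnb1 was below 0 on all arrays with a mean of -0.093.

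Semaphorins, the ligands of plexins, had 31 kept probes of 36, for 20 genes, and none was called by limma (5 at unadjusted p under 0.05, 1 lower and 4 higher). Those 5 were 16.1% of the semaphorin probes (3.23% lower, 12.9% higher). The share over all probes was 20.2% (8.37% lower, 11.9% higher). The semaphorin median was 0.017, and 13 of 31 were below 0. Sema3e, a secreted ligand that binds Plxnd1 directly, had the highest ratio of all members. Its processed intensity was 212, 351 and 297 in the double heterozygote pools and 354, 398 and 474 in the double null pools. The double null value was above the double heterozygote value within every array and above all double heterozygote values on every array. The normalized ratios were 0.64, 0.19 and 0.62, with a mean of 0.48 ± 0.094 (fold 1.40, adjusted p = 0.0698 by limma). Array 2 was the lowest of the 3, and the fit without replicate 2 called Sema3e, at 0.63 (adjusted p = 0.0218). Leaving out the lowest array raises the mean, and Sema3e was not called without replicate 1 or without replicate 3. The other 2 Sema3e probes were not kept.

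Other class 3 semaphorins gave values of both signs. One probe of Sema3f, a ligand of Nrp2, was at -0.42, -0.23 and -0.13 (mean -0.26 ± 0.067, adjusted p = 0.121), while its other probe, of like brightness, was at -0.060, 0.12 and 0.0086. Sema3c had 1 probe at 0.40, 0.48 and -0.036 (mean 0.28, adjusted p = 0.199) and another at 0.31, -0.016 and -0.20 (mean 0.032). Both Sema3a probes were near 0 on arrays 1 and 3, between -0.036 and 0.064, and higher on array 2, at 0.31 and 0.28. Sema3b, the brightest class 3 probe, was at -0.13, 0.021 and -0.053, and Sema3d was at 0.032.

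Among the membrane-bound semaphorins, the 8 class 4 probes had means between -0.084 and 0.075, with the brighter Sema4c probe at -0.026, 0.16 and 0.089 and its second at -0.16, -0.043 and -0.047. Sema7a, the only class 7 member, was at -0.040, -0.061 and -0.13 (mean -0.075). The brighter Sema6a probe was at 0.024, 0.020 and 0.0033, and the second at -0.048, -0.094 and 0.0090. Sema6b was at 0.022 and 0.020 on arrays 1 and 3 and at -0.43 on array 2.

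Sema6d and Sema5b each had 1 probe above 0 on all arrays and others that were not. The Sema6d probes were at 0.28, 0.20 and 0.12 (mean 0.20, adjusted p = 0.129) and at 0.0062, -0.18 and -0.069. Sema5b has 3 kept probes within chr16:35338889-35340418 of mm7, all on the plus strand, and their first 30 bases are shown because their ratios differ.
A_52_P127115: actggtgtgtcctgcttcctggtttctggg
A_51_P382310: ctgagctgtggacctattgggtatgtgagg
A_52_P385824: ctgctacagcaacaaaaaggatgttaagct
The third was at 0.21, 0.31 and 0.16 (mean 0.23 ± 0.053, limma adjusted p = 0.101). The first was at -0.043, 0.036 and -0.051 and the second at -0.12, 0.069 and -0.093. Their mean log2 intensities were 10.1 for the first, 10.9 for the second and 10.9 for the third.

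**Figure D2:**
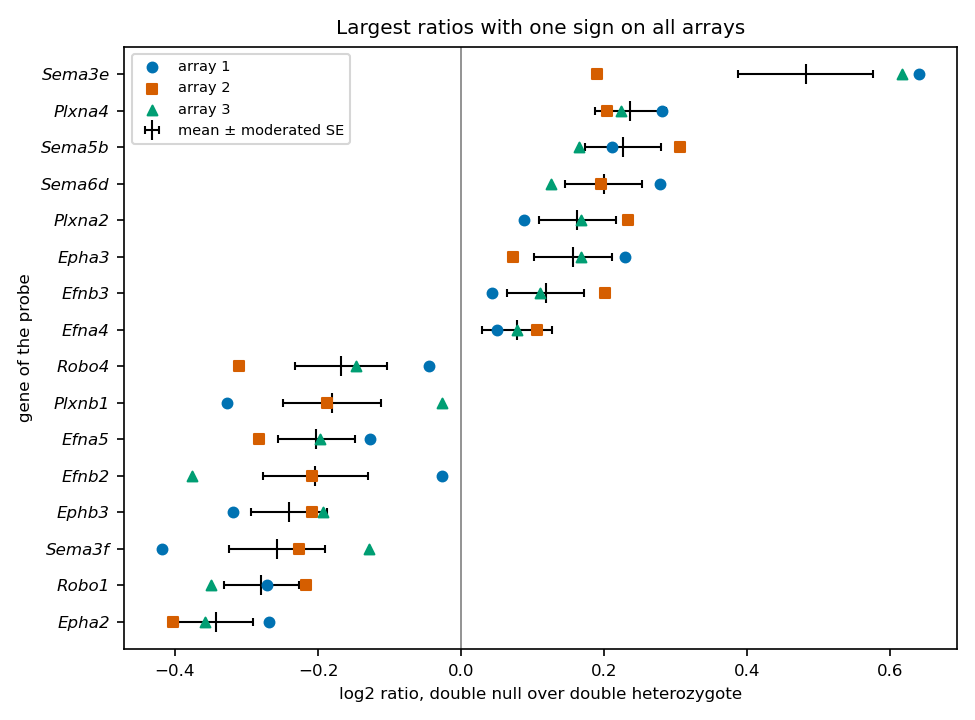
Log2 ratio on each array (symbols), with the mean and moderated SE over 3 arrays, for the 8 highest and 8 lowest ratios among kept guidance probes with one sign on all 3 arrays. The Epha2 symbols sit between -0.40 and -0.27, and Sema3e has 2 arrays above 0.6 and array 2 at 0.19.

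Plexins, the semaphorin receptors, had 14 kept probes of 17 for 7 genes, and 0 were called by limma (4 at unadjusted p under 0.05, 2 lower and 2 higher). Those 4 were 28.6% of the plexin probes, against 20.2% of all probes. The plexin probes lay on both sides, 7 of 14 below 0, and the median was 0.0095. One Plxna4 probe was at 0.28, 0.20 and 0.22 (mean 0.24 ± 0.050, adjusted p = 0.0820), a narrow spread, and the second, dimmer one at 0.14, -0.058 and 0.071. Plxna2 had 3 kept probes with means of 0.16, 0.024 and -0.072. The first of these was at 0.087, 0.23 and 0.17 and the last at -0.098, -0.039 and -0.081, so that 2 probes of the same gene lay on opposite sides of 0 on all arrays. The probe between them, the brightest plexin probe, was at 0.026, 0.062 and -0.016.

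Both probes of Plxnb1, a receptor for Sema4d, were below 0 on all 3 arrays. They gave -0.33, -0.19 and -0.027 (mean -0.18, limma adjusted p = 0.212) and -0.12, -0.14 and -0.10 (mean -0.12, adjusted p = 0.233). With median centring alone they were at 0.27 and 0.40. Sema4d itself was at -0.056 and -0.010. The kept Plxnb2 probe was at -0.0064, the Plxna1 probes at 0.042 and -0.0048, the Plxna3 probes at 0.040 and -0.045 and the Plxnc1 probes at -0.14 and 0.048. No Plxnb3 probe was kept.

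The neuropilins, co-receptors of class 3 semaphorins, had 4 kept probes with means between -0.12 and 0.064. Nrp2 was at 0.13, -0.33 and -0.063, with the arrays on both sides of 0. The 3 Nrp1 probes had means of 0.064, 0.039 and -0.12, and none was called.

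Slits had 5 kept probes of 9 and their Robo receptors 9 of 11, and 0 of these 14 were called by limma (2 Robo probes at unadjusted p under 0.05, both lower). Those 2 were 22.2% of the 9 Robo probes, while 8.37% of all probes were lower at that p. Robo1 had ratios of -0.27, -0.22 and -0.35 (mean -0.28 ± 0.052, fold 0.824, adjusted p = 0.0644). Its processed intensity was 1583, 1801 and 1828 in the double heterozygote pools and 1289, 1532 and 1437 in the double null pools, so every double null pool lay below every double heterozygote pool. Robo1 was at -0.31 without replicate 2 and -0.24 without replicate 3, and at 0.17 with median centring alone.

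Robo4, a Robo gene of endothelium, was at -0.045, -0.31 and -0.15 (mean -0.17, adjusted p = 0.218). The 2 Robo3 probes, at -0.011 and -0.025, are not independent measurements, since the end of one is the start of the other. Bases 31 to 60 of the first and 1 to 30 of the second are shown with the shared 20 bases in capitals.
A_51_P481489: ggtctacaagCGGTTTTAGTTGTCTTGGGA
A_51_P481494: CGGTTTTAGTTGTCTTGGGAatcagagaac
In the double heterozygote pools the first of these was detected over background on 2 of 3 arrays. A Sema5a probe (0.044) was so on 1 of 3, and the other 87 kept members were detected with both dyes on each array. Slit1 was at -0.061 and the Slit3 probes at 0.083 and 0.045.

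Among netrins, Ntn1 was at 0.33, -0.099 and 0.11 (mean 0.11, adjusted p = 0.489). Ntn3, listed in the files by its older name Ntn2l, was at 0.021. The Ntn4 probe was not kept.

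Epha7, Robo2 and Slit2 were singled out after their values were seen, because array 2 stood apart from arrays 1 and 3. The Epha7 probes were at -0.41, 0.17 and -0.58 and at -0.28, 0.17 and -0.61. The brighter Slit2 probe was at -0.096, 0.035 and -0.31, and the other at -0.14, 0.027 and -0.33. For both genes array 2 was above 0 and arrays 1 and 3 below it. The pair of probes gave close values, with the widest gap that of Epha7 on array 1.

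Robo2 has 5 kept probes, and array 2 was the highest and array 3 the lowest in each. The probe with the widest spread was at -0.068, 0.93 and -0.20. The next was at -0.33, 0.24 and -0.65. The others were at 0.017, 0.37 and -0.43, at 0.078, 0.15 and -0.34 and at -0.12, 0.063 and -0.27, so that array 1 was on either side of 0. Over the 5 probes the mean of arrays 1 and 3 was between -0.49 and -0.13, and array 2 was between 0.063 and 0.93. In the authors' deposited table the same probe with the widest spread was at -0.096, 1.11 and -0.23.

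Array 2 was opposite in sign to both other arrays in 26 of 89 members (29.2%), against 17.5% of all probes, and it was above 0 with both others below in 15 of 89 (16.9%), against 8.46%. These counts rest in part on the genes singled out for the pattern, which gave 7 of the 15. Without the 9 probes of Robo2, Epha7 and Slit2 they were 19 of 80 (23.8%) and 8 of 80 (10%). Across the 89 member probes the ratios of arrays 1 and 3 had r = 0.56, those of arrays 1 and 2 r = 0.21, and those of arrays 2 and 3 r = -0.010. Over all probes these values were 0.41, 0.37 and 0.36. Over the 80 member probes without those 3 genes they were 0.51, 0.39 and 0.38. Because those genes were chosen for a differing array 2, leaving them out favours higher values with array 2. The rise therefore cannot show that the low values were owed to these genes in particular. These correlations are across probes, several of which share a gene, and describe 3 pairs of pools. The order of arrays seen in Robo2 was also that of 6 of 12 hindbrain and neural plate probes (among them those of Zic1, Pax6 and Egr2, but not of Sox1, Sox2, Nkx6-1, Olig2, Hoxb1 or Irx3). It was that of 9 of 15 neural crest, 5 of 15 otic placode and 2 of 8 surface ectoderm probes. Head mesenchyme and mesoderm gave 2 of 14, foregut endoderm 1 of 7, endothelium 0 of 9 and blood 0 of 6. Pathway genes outside the name rule gave 5 of 18 (guidance receptors and ligands) and 12 of 67 (cytoplasmic mediators). The order was taken from Robo2 after its values were seen, and its share over all probes was not computed. The embryonic globin gene Hbb-bh1 had the opposite order, with 1 probe at 1.43, -0.51 and 2.69. The part of any of these tissues in the Robo2, Epha7 and Slit2 values was not tested.

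**Figure D3:**
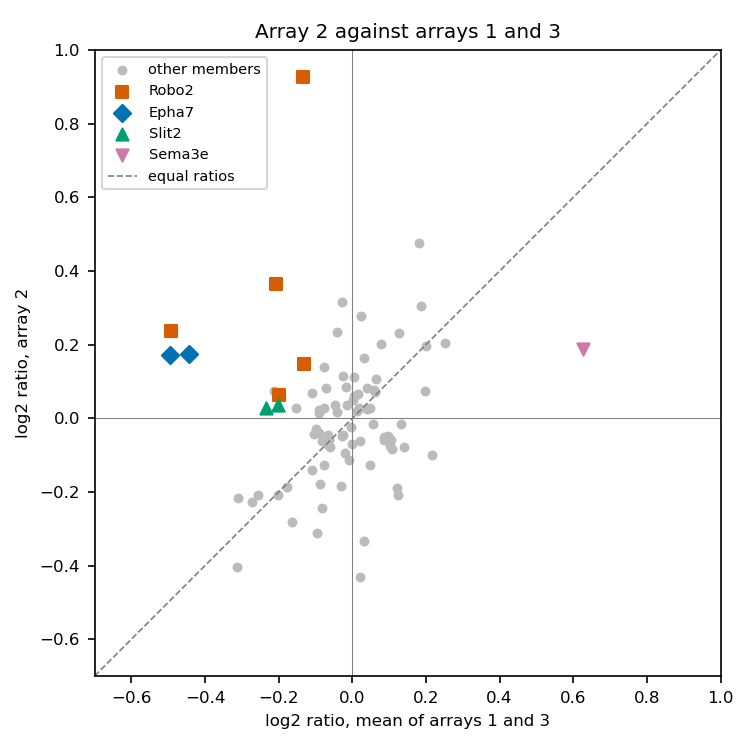
Log2 ratio of each kept guidance probe on array 2 (vertical) against the mean of arrays 1 and 3 (horizontal), with the dashed line where they are equal. The 5 Robo2, 2 Epha7 and 2 Slit2 probes lie above 0 on array 2 and below 0 on the mean of the others, and Sema3e lies at 0.63 and 0.19.

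Probes of the same gene did not always give the same sign. Of 27 member genes with several kept probes, 14 had probe means on both sides of 0. The widest gap was in Robo2, between -0.25 and 0.22, followed by Sema6d (a difference of 0.28), Sema3f (0.28) and Sema5b (0.28). The closest probes were those of Robo3 (0.014), which overlap, Ephb2 and Epha4 (0.018 each), Sema3a (0.022), Slit2 (0.024) and Epha7 (0.035). These gaps are between means over the arrays and do not compare the probes array by array. The probes of Epha7 had the same sign on each array, as did those of Slit2.

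**Figure D4:**
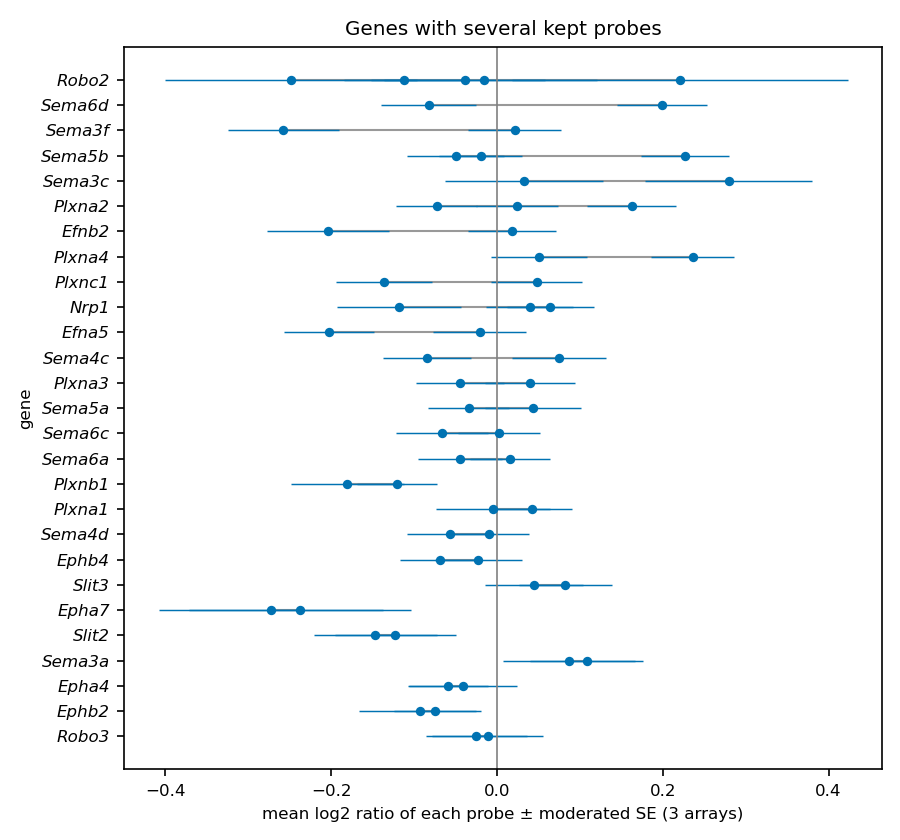
Mean log2 ratio with moderated SE over 3 arrays for every kept probe of the 27 guidance genes with several kept probes, ordered by the gap between their probes. Robo2 at the top spans 0.47, and Robo3 at the bottom 0.014.

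Genes outside the name rule that act in the same pathways were read from the same fit. Of 18 other guidance receptors and ligands such as Dcc, Neo1 and the Unc5 family, 11 had kept probes, 18 in all. By limma 0 of these 18 probes were called, 8 were below 0 and their median was 0.023. The lowest were Unc5b, a netrin receptor, at -0.92, -0.25 and -0.36 (mean -0.51, adjusted p = 0.108), and 1 of 4 probes of Neo1, a receptor of netrins and repulsive guidance molecules, at a mean of -0.18. The highest were Flrt2, a ligand of Unc5 receptors, at 0.54, 0.12 and 0.56 (mean 0.41, adjusted p = 0.0964), and 1 of 2 probes of Ntng1, a membrane-bound netrin, at a mean of 0.20. Dcc and Unc5d had no kept probe. Of 38 cytoplasmic mediators 37 had kept probes, 67 in all, of which 0 were called, 30 were below 0 and the median was 0.018. The lowest were a probe of Cdc42, a small GTPase that acts on the actin cytoskeleton, at -0.26, -0.23 and -0.28 (mean -0.26, adjusted p = 0.0644), and one of Pak1, a kinase bound by Cdc42, at a mean of -0.20. The other Cdc42 probes had means of 0.036 and 0.10. The highest were a probe of Arhgef12, a guanine nucleotide exchange factor bound by plexins of the B class, at 0.39, 0.13 and 0.33 (mean 0.28, adjusted p = 0.0959), and one of the related Arhgef11, at a mean of 0.20. The other 3 Arhgef12 probes had means between -0.17 and -0.070.

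Marker genes of the dissected tissue and its neighbours were set beside these values. Of 10 otic placode genes 9 had kept probes (Pax2 had none), with 14 of 15 probes below 0, 3 called lower and array medians of -0.37, -0.15 and -0.30. Surface ectoderm genes had 8 kept probes for 6 of 10 genes, and all 8 were below 0, with array medians of -0.24, 0.011 and -0.19 and 0 called. Summed processed intensity over the otic probes was 21240 to 25860 in the double heterozygote pools and 15390 to 18110 in the double null pools. For the surface ectoderm probes the sums were 70360 to 75400 and 56650 to 68940. These sums moved in the same direction as Epha2 and the Eph receptor median. By array, Epha2 was at -0.27, -0.40 and -0.36, lowest on array 2. The otic and surface ectoderm medians were highest on array 2. The Eph receptor medians by array were -0.16, -0.036 and -0.043. The part of the 2 tissues in the Epha2 and Eph receptor values was not tested.

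Hindbrain and neural plate probes had array medians of -0.17, 0.0066 and -0.22 (10 of 12 below 0), and neural crest probes -0.13, 0.073 and -0.25 (10 of 15 below 0). Array 2 was the highest in both lists, as it was in the otic placode and surface ectoderm lists. By probe, array 2 was the highest in 8 of 12 hindbrain, 13 of 15 neural crest, 12 of 15 otic and 7 of 8 surface ectoderm probes. The sums of the hindbrain probes were 45930 to 58420 in the double heterozygote and 44480 to 47320 in the double null pools, and those of the neural crest probes 23500 to 31500 and 24010 to 26610. Endothelial probes were highest on array 1, with medians of 1.1, 0.16 and 0.095 and 8 of 9 above 0. Their sums were 1438 to 2367 in the double heterozygote and 2293 to 2566 in the double null pools, and Pecam1, Tie1 and Esam had no kept probe. Sema3g, a semaphorin of vessels, was also highest on array 1, at 0.37, -0.19 and -0.12, and so was Robo4, at -0.045, -0.31 and -0.15. Robo4 was thus below 0 on all 3 arrays, opposite in sign to 8 of the 9 endothelial probes. In the authors' deposited table Robo4 was at 0.10, -0.45 and -0.35. Blood probes had array medians of 1.01, -0.36 and 1.59, with sums of 623 to 1205 in the double heterozygote and 412 to 7189 in the double null pools, and Hbb-y, Gata1 and Alas2 had no kept probe. Head mesenchyme and mesoderm probes had array medians of 0.21, -0.034 and -0.013 (5 of 14 below 0, 0 called), and foregut endoderm probes 0.11, -0.25 and -0.032 (4 of 7 below 0, 1 called lower). Sema3e and Flrt2 were lowest on array 2, as were the blood probes. The head mesenchyme and foregut endoderm medians were also lowest on array 2, while the endothelial median was not. The part of blood, vessel or other tissue RNA in the Sema3e and Flrt2 ratios was not tested.

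**Figure D5:**
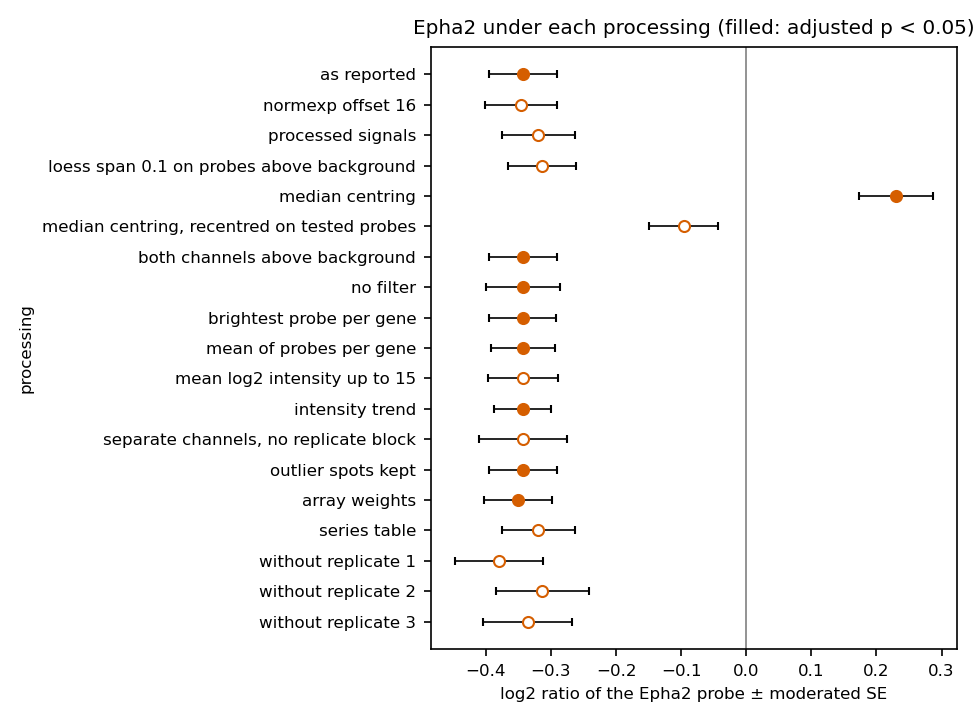
Log2 ratio of the Epha2 probe with its moderated SE under each processing, filled where limma's adjusted p was under 0.05. The ratio is -0.34 as reported and between -0.38 and -0.31 in every other setting except the 2 with median centring, at 0.23 and -0.096.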

How the data were processed

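The members and gene lists were chosen with earlier results of these data known. Per the labels, Agilent's low-input linear amplification for 2 colours made the labelled RNA. Per the submitters' processing notes, the authors used Agilent Feature Extraction 9.5.1.1. The deposited files hold mean spot and median background intensity per channel, not normalized, and a processed intensity, which per the file headers had background removed and dyes normalized. They also hold a deposited log10 ratio, which was not used. The authors' series table holds log2 ratios, which correlated at r = 1 with the ratio of the processed intensities on each array.

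Background was corrected with normexp (offset 50) and ratios by loess (span 0.3, controls at weight 0). Between 143 and 175 outlier spots per array were left out, no member spot was saturated, and spots of a probe were averaged. Detection required the scanner's mark for signal well over background with 1 dye, Cy3 or Cy5, on each of the 3 arrays, in at least 50% of a probe's spots. limma 3.58.1 (R 4.3.3, lmFit and eBayes, intercept only) tested 25508 probes with Benjamini-Hochberg adjustment, and the fit was tested on simulated data. Member probes were matched to RefSeq, 75 by accession and 40 by symbol. Probes named with all values were those called, the 8 highest and 8 lowest ratios with one sign on all arrays, the brightest of each family and further probes of their genes. The number of arrays limits the precision. Alternatives were other background treatments, normalizations, filters, probe rules, priors, thresholds, unpaired channels, the series table and each array left out.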

Additional observations from a re-analysis of the deposited data

How the results depend on the processing

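The single member call (384 calls over all probes, 74 lower and 310 higher) became 0 with an offset of 16 (199 over all probes, 19 lower and 180 higher; 16 members at unadjusted p under 0.05), 0 with processed signals (0 over all, 4418 at unadjusted p under 0.05, 14 members) and 0 with the series table (0 over all, 4469 and 14). It was 0 with loess of span 0.1 (11 over all, 0 lower and 11 higher; 15 members at unadjusted p under 0.05), 0 up to a mean log2 intensity of 15 (21 over all, 1 lower and 20 higher; 16 members) and 0 with separate channels and no replicate block (185 over all, 12 lower and 173 higher; 9 members). It was 4 with an intensity trend (Epha2, Ephb3, Robo1 and Sema3e; 993 over all, 357 lower and 636 higher) and 5 at adjusted p under 0.10, which adds Plxna4 (1081 over all, 377 lower and 704 higher). With 1 array left out it was 0 to 1, the latter Sema3e without replicate 2, and over all probes 86 (without replicate 3) to 308. The ratio of Epha2 lost its call at -0.35 (offset 16), -0.32 (processed signals and series table), -0.31 (span 0.1), -0.34 (intensity up to 15, and separate channels with no replicate block) and -0.38 to -0.31 with 1 array left out.

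Median centring without loess left the tested probes at medians of 0.36, 0.32 and 0.30 on the 3 arrays, with 56 member calls and 19477 over all (2280 lower, 17197 higher). It turned Epha2 to 0.23, Epha4 to 0.40 and 0.57, Ephb2 to 0.43, Ephb3 to 0.23, Efna5 to 0.43, Efnb2 to 0.39, Sema3b to 0.26, Sema4c to 0.27, Sema5b to 0.38 and 0.35, Sema7a to 0.19, Nrp2 to 0.46, Plxna2 to 0.37, Plxnb1 to 0.40 and 0.27, Slit2 to 0.29 and Robo1 to 0.17. Recentred on the tested probes, a choice made after seeing the data, it gave 43 member calls and 13928 over all (7617 lower, 6311 higher), with Epha2 at -0.096. Of 40 named probes 15 changed sign there, 3 of them past the threshold, Epha3 (-0.32), Epha4 (0.24) and one Plxna4 probe (-0.42). Neither setting removes a dye difference that depends on brightness. Of 745 values of the named probes under all alternatives, 39 changed sign without a call, besides the 21 reversals given above.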
